A study of Mus musculus with 15 samples.

Results

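Circadian clock genes were followed through 15 RNA-sequencing libraries of mouse leukemic spleen cells. The group held 10 genes given by symbol (Arntl, Per1, Per2, Per3, Cry1, Cry2, Ciart, Nr1d1, Nr1d2 and Dbp), and all 10 were found in both deposited tables, among 16470 genes in the vehicle table and 16428 in the ibrutinib table. They were selected on measured values, since Ciart was already known from an earlier look at these tables to be higher in the p53-mutant libraries in vehicle, and its pathway was chosen around it. Levels and genotype differences of the 10 genes are therefore a description and carry no test.

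The clock is a transcriptional loop that keeps time in nearly every cell. ARNTL (also called BMAL1) pairs with CLOCK on E-box elements and switches on the Per, Cry, Ciart, Nr1d1, Nr1d2 and Dbp genes. PER and CRY proteins, and CIART, then hold the ARNTL and CLOCK pair back, while NR1D1 and NR1D2 (the REV-ERB receptors) shut down Arntl itself, and DBP acts on D-box elements of output genes and of Per genes. In lymphocytes and spleen the loop is known to run with the time of day, so that genes driven through E-boxes peak at another time than Arntl.

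The Eμ-TCL1 mouse expresses human TCL1 under the Eμ immunoglobulin enhancer, which is active in B cells, and develops a disease that resembles chronic lymphocytic leukemia. The Eμ-TCL1;p53R172H/+ mouse, called p53-mutant here, carries in addition 1 allele of Trp53 with the R172H mutation beside 1 wild-type allele, so that the TCL1 transgene and the C57Bl/6 background are common to all groups. Cells were taken from leukemic spleens by mechanical disruption, are labelled as B-cells, and were cultured for 24 h with DMSO (vehicle) or with 5 µM ibrutinib, an inhibitor of Bruton's tyrosine kinase. The groups held 3 Eμ-TCL1 and 5 p53-mutant libraries in vehicle, and 3 Eμ-TCL1 and 4 p53-mutant libraries in ibrutinib. The labels number the replicates but give neither the age at harvest nor the time of day, so the part of clock phase in any difference was not tested.

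Values are normalized CPM (read counts of a gene, scaled to a common library size), which the authors scaled separately in each table. Levels in vehicle and in ibrutinib are therefore set side by side only, and depth is unknown.

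Some libraries stood apart in what cells they held. The p53-mutant vehicle replicates 1 and 2 and p53-mutant ibrutinib replicate 1 had few B-cell transcripts, with 10 B-cell markers summing to 124.7 to 529.5 and 10 T-cell markers to 1786 to 3434. The other p53-mutant vehicle libraries had B-cell sums of 7336 to 8585 and T-cell sums of 204.8 to 239.2. Eμ-TCL1 vehicle replicate 2 and Eμ-TCL1 ibrutinib replicate 1 were rich in myeloid and erythroid transcripts, with Lyz2 at 7931 and 5896 and B-cell sums of 1145 and 994. T-cell sums in ibrutinib were 565.1 to 1786 in the p53-mutant and 123.9 to 428.8 in the Eμ-TCL1 libraries, and B-cell sums were 124.7 to 2764 and 994 to 5891. The sums of 10 G2/M genes were 161.1 to 586.6 in p53-mutant and 468.6 to 1572 in Eμ-TCL1 libraries in vehicle, and 78.1 to 121.3 and 211.3 to 990.5 in ibrutinib. Y-linked transcripts were present in 3 of 5 p53-mutant vehicle, 3 of 4 p53-mutant ibrutinib and 0 of 6 Eμ-TCL1 libraries. No defining marker of B or T cells was at 0 throughout a group. The part that these differences played in the values below was not tested. Each of the 10 clock genes is given with and without the libraries that stood apart, and other clock genes over all libraries only. Leaving them out removes those of few B-cell transcripts (Btk under 0.1 of the table median) and those with Lyz2 over 1000, and does not even out the libraries that remain: p53-mutant ibrutinib replicate 3, with a B-cell sum of 1095 and a T-cell sum of 1107, stays in. What is left is 2 Eμ-TCL1 and 3 p53-mutant libraries in vehicle, and 2 and 3 in ibrutinib. The limit on Lyz2 was chosen after seeing the data. In bulk RNA, fewer cells of a type and less RNA per cell cannot be told apart.

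The promoters of the clock genes were read for letters that match the elements of the loop, and no binding was measured. RefSeq entries (GRCm38.p6) matched 9 of the 10 genes with 11 promoters, and the 250 bases before each start were searched on both strands for the E-box CACGTG, which is its own reverse complement, and for the D-box TTATGTAA. An E-box was found in the promoters of 3 genes and a D-box in 1, and no promoter held overlapping copies of both. Among 32851 promoters of the same length, 6.02% held at least 1 E-box and 0.819% at least 1 D-box. The 4 promoters that hold a motif follow, 5′ to 3′ on the strand of the gene, with the motifs in capitals. They are shown because Ciart and Per1 had the genotype differences described next, while Cry1 and Per3, with motifs of their own, did not share them. Dbp and Cry2 also separated the genotypes in vehicle, and held neither motif in these bases. Whether the motifs bear on the differences was not tested.
Ciart, chr3:95882229-95882478, minus strand: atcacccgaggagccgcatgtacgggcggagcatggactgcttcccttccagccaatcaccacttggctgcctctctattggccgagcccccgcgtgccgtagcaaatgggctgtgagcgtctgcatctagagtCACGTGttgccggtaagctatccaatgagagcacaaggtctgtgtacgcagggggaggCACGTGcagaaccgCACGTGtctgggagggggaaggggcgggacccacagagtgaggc
Per1, chr11:69098699-69098948, plus strand: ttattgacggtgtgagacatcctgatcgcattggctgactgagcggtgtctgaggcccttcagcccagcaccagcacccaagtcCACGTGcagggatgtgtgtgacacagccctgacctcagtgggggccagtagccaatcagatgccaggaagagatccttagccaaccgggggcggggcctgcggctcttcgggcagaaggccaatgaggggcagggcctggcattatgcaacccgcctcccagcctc
Cry1, chr10:85185055-85185304, minus strand: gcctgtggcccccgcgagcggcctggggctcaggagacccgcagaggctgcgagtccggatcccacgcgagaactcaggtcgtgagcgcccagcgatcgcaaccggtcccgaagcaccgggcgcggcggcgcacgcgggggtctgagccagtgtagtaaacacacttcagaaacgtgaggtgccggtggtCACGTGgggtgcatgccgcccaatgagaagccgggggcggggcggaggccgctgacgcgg
Per3, chr4:151044666-151044915, minus strand: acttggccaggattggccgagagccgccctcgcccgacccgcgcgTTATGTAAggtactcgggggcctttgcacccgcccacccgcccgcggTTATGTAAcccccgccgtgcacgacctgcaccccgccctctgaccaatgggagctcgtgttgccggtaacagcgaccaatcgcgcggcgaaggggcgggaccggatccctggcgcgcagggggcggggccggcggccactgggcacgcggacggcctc
The Ciart promoter held 3 E-boxes, which begin 116, 58 and 44 bases before the start. Only 20 of the 32851 promoters, or 0.0609%, held 3 or more. The single E-box of Per1 begins 166 bases before the more upstream of its 2 RefSeq starts and that of Cry1 begins 60 bases before the start, while Per3 held 2 D-boxes, 205 and 158 bases before the start, as did 6 promoters in all with 2 or more. A match is a description of letters, and no match in the 250 bases of Arntl, Cry2, Nr1d1, Nr1d2 or Dbp says nothing about elements elsewhere.

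In vehicle, the repressors Ciart, Per1 and Cry2 and the output factor Dbp were higher in the p53-mutant libraries, with no overlap between genotypes. The activator Arntl differed by less than its error over all libraries (log2 difference 0.32, SE 0.44). Without the libraries that stood apart it differed by more than its error (0.49, SE 0.33). Of the 10 genes, 9 had a log2 difference above 0 and 1 (Cry1) below, with a median of 0.89 on the log2(value + 1) scale, against a median of 0.04 over all 16470 genes. None of the 10 passed an adjusted p of 0.05 (limma, Benjamini-Hochberg over all genes), which 0.0121% of all genes did. In 4 genes (Per1, Cry2, Ciart and Dbp) the 5 p53-mutant libraries all lay above the 3 Eμ-TCL1 libraries, and in 0 genes below, where 3.52% of all genes lay wholly above and 2.93% wholly below. The genes were proposed with this contrast in view, so nothing is read from these counts.

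**Figure D1:**
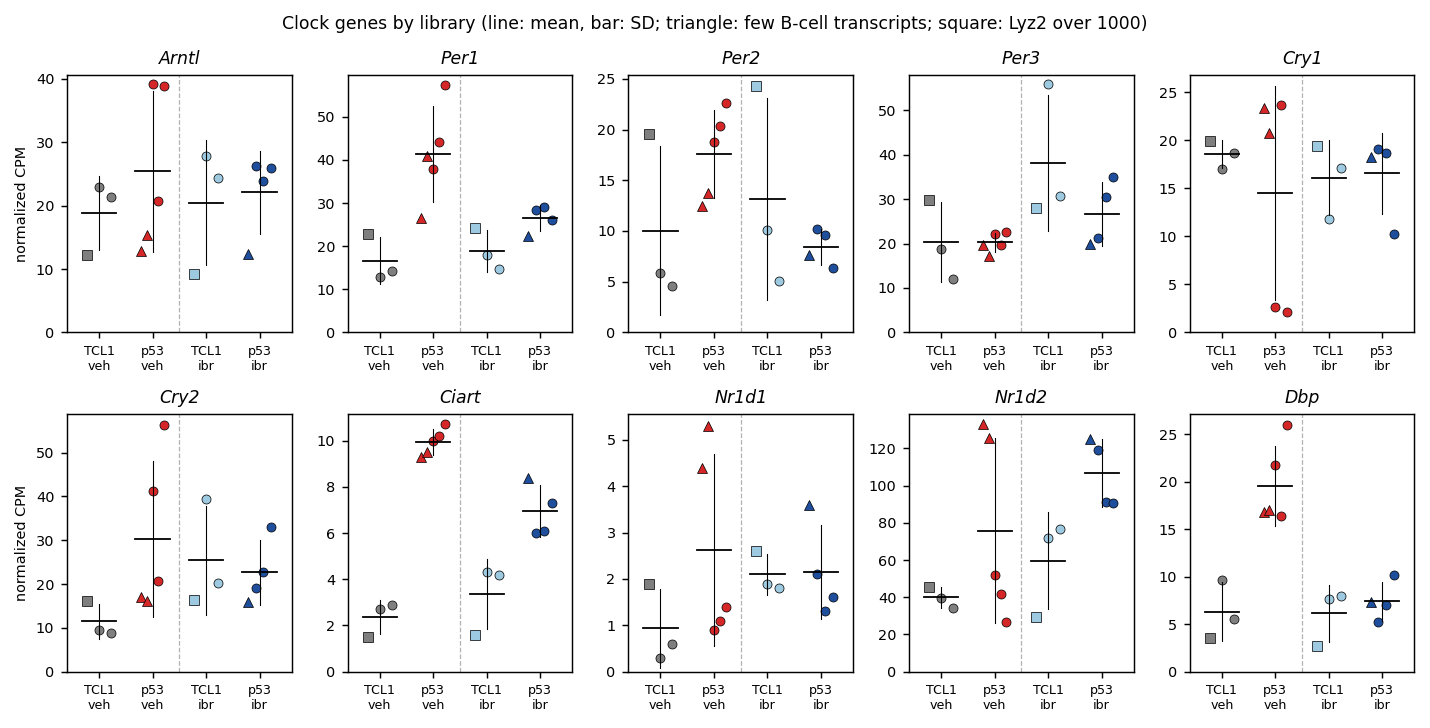
Normalized CPM (vertical axis, from 0) of the 10 clock genes in every library, by group (TCL1, Eμ-TCL1; p53, Eμ-TCL1;p53R172H/+; veh, vehicle; ibr, ibrutinib), with the mean as a line and the SD as a bar, cut off at 0. Triangles are libraries with few B-cell transcripts, squares those with Lyz2 over 1000, and the dashed line parts the 2 tables, which were scaled separately. Ciart sits at 9.3 to 10.7 in the p53-mutant and 1.5 to 2.9 in the Eμ-TCL1 libraries in vehicle, while Cry1 splits the p53-mutant vehicle libraries into 3 near 20 and 2 under 3.

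Ciart, which encodes a repressor of the ARNTL and CLOCK pair, lies at chr3:95878503-95882251 on the minus strand (GRCm38). Its level in the 5 p53-mutant vehicle libraries was 9.3, 9.5, 10, 10.2 and 10.7, and in the 3 Eμ-TCL1 vehicle libraries 1.5, 2.7 and 2.9. The lowest p53-mutant library was thus above the highest Eμ-TCL1 library. Of the p53-mutant libraries, 2 were rich in T-cell and 3 in B-cell transcripts, and the part of cell content in the Ciart values was not tested. The means were 9.94 ± 0.559 (SD, n = 5) and 2.37 ± 0.757 (SD, n = 3), a ratio of 4.20 and a log2 difference of 1.73 (SE 0.27). Without the libraries of few B-cell transcripts the log2 difference was 1.77 (SE 0.31), without those and the Lyz2-rich library it was 1.57 (SE 0.19), and among libraries without Y-linked transcripts it was 1.78 (SE 0.36). The gene lies within C920021L13Rik on the other strand, whose exons do not overlap it and which stood at 0.3 to 1.3 in all libraries.

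Dbp, a D-box activator that is among the most strongly rhythmic outputs of the clock, lies at chr7:45705088-45710203 on the plus strand. Its level was 16.8, 17.0, 21.8, 16.4 and 26.0 in p53-mutant replicates 1 to 5 in vehicle, and 3.6, 9.7 and 5.6 in Eμ-TCL1 replicates 2 to 4. Every p53-mutant library was above every Eμ-TCL1 library, and the Lyz2-rich Eμ-TCL1 replicate 2 had the lowest value. The means were 19.6 ± 4.20 (SD, n = 5) and 6.30 ± 3.11 (SD, n = 3), a ratio of 3.11 and a log2 difference of 1.56 (SE 0.33), and this difference was 1.68 (SE 0.39) without the libraries of few B-cell transcripts and 1.39 (SE 0.33) without the Lyz2-rich one as well. Exons of Dbp overlap those of Sphk2 on the opposite strand, which stood at 36.1 to 53.9 in p53-mutant and 26.9 to 37.3 in Eμ-TCL1 vehicle libraries. Whether the counting used strand is not given in the sources used here, so reads of the 2 genes in the overlap cannot be told apart.

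Per1 encodes the period protein that responds most quickly to signals from outside the cell, and lies at chr11:69095217-69109960 on the plus strand. In p53-mutant replicates 1 to 5 in vehicle its level was 26.6, 41.0, 37.9, 44.1 and 57.5, and in Eμ-TCL1 replicates 2 to 4 it was 22.9, 12.9 and 14.2. The genotypes did not overlap, with p53-mutant replicate 1 and Eμ-TCL1 replicate 2, both libraries that stood apart, nearest to each other. Means were 41.4 ± 11.2 (SD, n = 5) and 16.7 ± 5.44 (SD, n = 3), which is a ratio of 2.49 and a log2 difference of 1.26 (SE 0.30). Leaving out the libraries of few B-cell transcripts gave 1.45 (SE 0.30), and leaving out the Lyz2-rich library too gave 1.69 (SE 0.22).

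Per2, at chr1:91415982-91459324 on the minus strand, was at 12.5, 13.7, 18.8, 20.4 and 22.6 in the p53-mutant and at 19.6, 5.9 and 4.6 in the Eμ-TCL1 vehicle libraries. The overlap came from 1 library, the Lyz2-rich Eμ-TCL1 replicate 2, which had a level among those of the p53-mutant libraries. The log2 difference was 0.97 (SE 0.45) over all libraries and 1.79 (SE 0.20) without the libraries that stood apart, where 2 Eμ-TCL1 libraries are left. Per3, which is the least central of the 3 period genes for keeping the rhythm, lies at chr4:151003652-151044665 on the minus strand and was at 17.3 to 22.7 in p53-mutant and 12.1 to 29.9 in Eμ-TCL1 vehicle libraries, a log2 difference of 0.08 (SE 0.30) that was 0.48 (SE 0.24) without the libraries that stood apart. Per1 had a larger difference than Per2 over all libraries and Per2 a larger one than Per1 without those libraries, within their standard errors both times, and Per3 had the smallest in both.

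The cryptochromes, which are the strongest repressors in the loop, differed from each other in how they split the p53-mutant vehicle libraries. Cry1 (chr10:85131700-85185064, minus strand) stood at 23.4, 20.7, 2.6, 23.7 and 2.1 in p53-mutant vehicle replicates 1 to 5, and at 19.9, 17.0 and 18.7 in Eμ-TCL1 replicates 2 to 4. Thus 3 p53-mutant libraries were slightly above all Eμ-TCL1 libraries and 2 were far below, so that the mean of 14.5 ± 11.2 (SD, n = 5) describes none of them, and the log2 difference was −0.85 (SE 0.80). It was −1.58 (SE 0.80) without the libraries of few B-cell transcripts, −1.53 (SE 1.03) without the Lyz2-rich one as well, and −2.55 (SE 0.30) among libraries without Y-linked transcripts, where the 2 p53-mutant libraries left are those with low Cry1. Cry2 (chr2:92403646-92434043, minus strand) was at 17.1, 16.2, 41.2, 20.8 and 56.4 in the same order, against 16.1, 9.4 and 8.9 in Eμ-TCL1 libraries.

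The groups of Cry2 met without overlapping, at 16.1 and 16.2, and the log2 difference was 1.20 (SE 0.46), or 1.64 (SE 0.43) without the libraries of few B-cell transcripts. It was 1.89 (SE 0.45) without the Lyz2-rich library as well, and 2.03 (SE 0.36) among libraries without Y-linked transcripts. In replicates 1, 2 and 4 both cryptochromes were above every Eμ-TCL1 library. The libraries with low Cry1, replicates 3 and 5, were those with the highest Cry2. They were also the 2 p53-mutant vehicle libraries with no more than 0.2 of summed Y-linked transcripts, and their B-cell sums of 7336 and 7555 and T-cell sums of 226.9 and 239.2 were near those of replicate 4 (8585 and 204.8), which had Cry1 at 23.7. The 6 Eμ-TCL1 libraries, all without Y-linked transcripts, had Cry1 at 11.8 to 19.9. G2/M sums were 407.5 and 161.1 in p53-mutant vehicle replicates 3 and 5 and 586.6 in replicate 4. The part of cell content or of sex in this split was not tested.

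Arntl, the activator, lies at chr7:113207465-113314126 on the plus strand. Its level was 12.9, 15.3, 39.2, 20.7 and 38.9 in p53-mutant replicates 1 to 5 and 12.2, 23.0 and 21.4 in Eμ-TCL1 replicates 2 to 4 in vehicle. High values stood in the same 2 p53-mutant libraries that had low Cry1 and high Cry2, and low values in the libraries of either genotype with low B-cell sums. The log2 difference was 0.32 (SE 0.44), 0.76 (SE 0.37) without the libraries of few B-cell transcripts, 0.49 (SE 0.33) without the Lyz2-rich one as well, and 1.06 (SE 0.35) among libraries without Y-linked transcripts. The activator and 5 of the 6 genes that repress its complex thus had log2 differences above 0. Over all libraries the 3 largest of the 10 were those of Ciart, Dbp and Per1, while without the libraries that stood apart those of Cry2 (1.89), Per2 (1.79) and Per1 (1.69) came before Ciart (1.57) and Dbp (1.39). The second order rests on 2 Eμ-TCL1 and 3 p53-mutant libraries.

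Both REV-ERB genes were highest in the T-cell-rich libraries in vehicle. Nr1d2 (chr14:18204054-18239127, minus strand) was at 133.2 and 125.5 in p53-mutant replicates 1 and 2, the T-cell-rich libraries, and at 51.7, 41.9 and 26.8 in replicates 3 to 5, beside 45.7, 39.7 and 34.2 in the Eμ-TCL1 libraries. Its log2 difference of 0.65 (SE 0.53) was −0.03 (SE 0.29) without the libraries of few B-cell transcripts. It was 0.07 (SE 0.31) without the Lyz2-rich library as well, and −0.08 (SE 0.35) among libraries without Y-linked transcripts. Nr1d1 (chr11:98767932-98775333, minus strand) was at 4.4 and 5.3 in those 2 libraries and at 0.9 to 1.4 in the other p53-mutant libraries, against 0.3 to 1.9 in Eμ-TCL1. Its log2 difference of 0.81 (SE 0.50) was 0.22 (SE 0.34) without them and 0.56 (SE 0.16) without the Lyz2-rich library as well. Exons of Nr1d1 overlap those of Thra, the thyroid hormone receptor gene on the other strand, which stood at 33.6 and 34.3 in p53-mutant replicates 1 and 2, so part of the Nr1d1 value in any library may be counted from Thra and cannot be told apart.

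**Figure D2:**
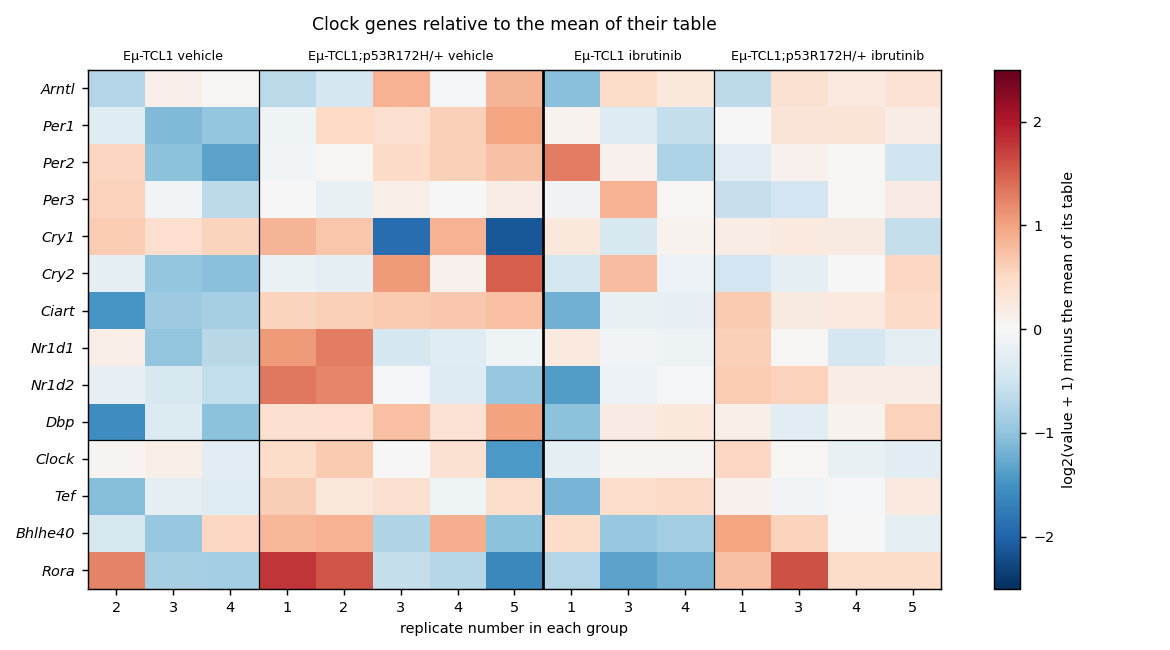
Each clock gene (rows; 10 members above the line, 4 other clock genes below) in each library (columns, by group and replicate number), as log2(value + 1) minus the mean of its table. Blue is below and red above the mean. Cry1 is lowest and Cry2 highest in p53-mutant vehicle replicates 3 and 5, and Ciart, Per1 and Dbp are above or near the mean in all 5 p53-mutant vehicle libraries.

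Within ibrutinib the differences were smaller for most of these genes. Of the 10 genes, 6 had a log2 difference above 0 and 4 below, with a median of 0.11 against −0.05 over all 16428 genes, and none passed an adjusted p of 0.05, as 0% of all genes did. Ciart and Nr1d2 lay wholly above in the p53-mutant libraries and 0 genes lay wholly below, where 6.68% of all genes lay wholly above and 5.97% wholly below. Again these counts only describe genes proposed with the results in view.

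Ciart in ibrutinib was at 8.4, 6.0, 6.1 and 7.3 in p53-mutant replicates 1, 3, 4 and 5, and at 1.6, 4.3 and 4.2 in Eμ-TCL1 replicates 1, 3 and 4. The 2 groups did not overlap, and the lowest value was that of the Lyz2-rich library. Its deviations from the group mean had r = 0.90 over genes with those of the Lyz2-rich vehicle library, so the 2 may share a mouse. The means of 6.95 ± 1.13 (SD, n = 4) and 3.37 ± 1.53 (SD, n = 3) gave a ratio of 2.06 and a log2 difference of 0.93 (SE 0.32). Without the library of few B-cell transcripts the difference was 0.84 (SE 0.35), and without the Lyz2-rich library as well it was 0.50 (SE 0.21). A smaller difference in the same direction was thus left among these 5 libraries.

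Dbp did not separate the genotypes in ibrutinib. Its level was 7.3, 5.2, 7.0 and 10.2 in the p53-mutant and 2.7, 7.7 and 8.0 in the Eμ-TCL1 libraries, with a log2 difference of 0.32 (SE 0.38) that was −0.11 (SE 0.30) without the libraries that stood apart. Per1 was at 22.4, 28.5, 29.0 and 26.0 in the p53-mutant and 24.1, 17.9 and 14.7 in the Eμ-TCL1 libraries, where only the p53-mutant replicate 1 and the Lyz2-rich Eμ-TCL1 replicate 1 crossed. Its log2 difference was 0.49 (SE 0.21), and 0.74 (SE 0.16) without those libraries.

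Per2 was at 6.3 to 10.2 in the p53-mutant and at 24.3, 10.1 and 5.1 in the Eμ-TCL1 ibrutinib libraries, with the highest value in the Lyz2-rich one and a log2 difference of −0.36 (SE 0.47) that turned to 0.21 (SE 0.36) without the libraries that stood apart. For Per3 the range was 19.9 to 35.0 against 28.1 to 55.8, and the log2 difference was −0.47 (SE 0.31), or −0.53 (SE 0.34) without them. Cry1 (10.2 to 19.1 against 11.8 to 19.4), Cry2 (15.9 to 33.0 against 16.4 to 39.5) and Arntl (12.4 to 26.3 against 9.2 to 27.9) overlapped widely. Their log2 differences were 0.03 (SE 0.28), −0.11 (SE 0.36) and 0.19 (SE 0.43), and without the libraries that stood apart 0.11 (SE 0.34), −0.21 (SE 0.36) and −0.04 (SE 0.15). The lowest Cry1 and the highest Cry2 of the p53-mutant group were in the same library, replicate 5, at 10.2 and 33.0. Its deviations from the group mean had r = 0.77 over genes with those of p53-mutant vehicle replicate 5. The 2 libraries may share a mouse, so this is not a separate observation. It was also the only p53-mutant ibrutinib library without Y-linked transcripts (sum 0.3).

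Nr1d2 was at 125.2, 119.3, 91.3 and 90.8 in p53-mutant replicates 1, 3, 4 and 5 and at 29.6, 72.1 and 76.9 in Eμ-TCL1 replicates 1, 3 and 4. The genotypes did not overlap, and the log2 difference was 0.93 (SE 0.35). It was 0.85 (SE 0.39) without the library of few B-cell transcripts and 0.42 (SE 0.18) without the Lyz2-rich library as well, and the p53-mutant libraries left in had T-cell sums of 565.1 to 1107 against 123.9 and 428.8. Nr1d1, at 1.3 to 3.6 and 1.8 to 2.6, had a log2 difference of −0.02 (SE 0.29), or −0.11 (SE 0.20) without the libraries that stood apart.

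**Figure D3:**
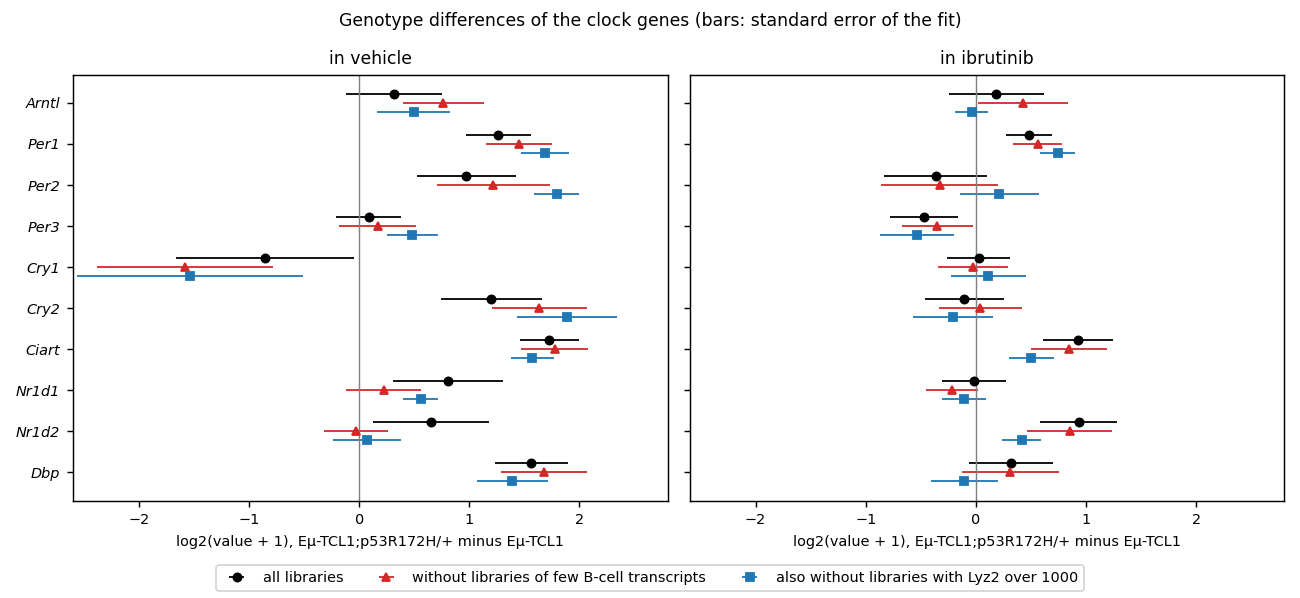
Difference in log2(value + 1) between p53-mutant and Eμ-TCL1 libraries (horizontal axis) for each clock gene (rows), in vehicle (left) and in ibrutinib (right), over all libraries (black), without those of few B-cell transcripts (red) and without those with Lyz2 over 1000 as well (blue). Bars are standard errors of the fit. Ciart, Per1 and Dbp keep values of 1.26 or more in vehicle under all 3 choices, while Nr1d2 in vehicle goes from 0.65 to −0.03 once the libraries of few B-cell transcripts are left out.

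The difference between the 2 genotype differences was taken over the 15869 genes in both tables, as the difference in ibrutinib minus that in vehicle. It was below 0 for 8 of the 10 genes and above 0 for Cry1 and Nr1d2, with a median of −0.79 against −0.07 over all genes, and 0% of all genes passed an adjusted p of 0.05. The values were −1.34 (SE 0.67) for Per2, −1.31 (SE 0.62) for Cry2, −1.24 (SE 0.50) for Dbp, −0.80 (SE 0.38) for Ciart and −0.78 (SE 0.37) for Per1. For Cry1 the value was 0.88 (SE 0.95) and for Nr1d2 it was 0.28 (SE 0.69). Without the libraries that stood apart, again 8 of the 10 were below 0, with a median of −0.98, and Cry2 had −2.10 (SE 0.61), Dbp −1.50 (SE 0.46) and Ciart −1.07 (SE 0.26). The genes were proposed with the vehicle difference in view, and that difference is subtracted here. The choice of genes by itself thus favours values below 0, and nothing is read from these counts and medians.

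Side by side, the p53-mutant means were 9.94 in vehicle and 6.95 in ibrutinib for Ciart, 19.6 and 7.43 for Dbp, 41.4 and 26.5 for Per1, and 17.6 and 8.42 for Per2. The Eμ-TCL1 means were 2.37 and 3.37 for Ciart, 6.30 and 6.13 for Dbp, 16.7 and 18.9 for Per1, and 10.03 and 13.2 for Per2. The 2 tables were scaled separately and hold partly different replicates, so these pairs of means were not tested.

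Per kilobase of exon (GENCODE M21, GRCm38), Nr1d2 had the highest mean level of the 10 genes in every group, at 7.37 in Eμ-TCL1 and 14.0 in p53-mutant libraries in vehicle and 11.01 and 19.7 in ibrutinib. Nr1d1 had the lowest in every group, at 0.303 and 0.851 in vehicle and 0.682 and 0.699 in ibrutinib. Ciart was second lowest in Eμ-TCL1 vehicle at 1.05 per kilobase, and stood at 4.40 in p53-mutant vehicle. The exon models of the authors' older annotation may differ in length.

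Within groups the clock genes did not vary as a single block. Deviations of log2(value + 1) from the group means were compared over the 15 libraries, which share a table scale and may share mice, so the values are descriptions. The median Pearson r of the 45 gene pairs was −0.03, with 9 pairs above 0.5 and 7 below −0.5. Ciart and Dbp varied together (r = 0.82, Spearman rho = 0.76), at 0.62 without the 2 Lyz2-rich libraries, which lay farthest from the median of Ciart, and at 0.85 without the 3 libraries of few B-cell transcripts.

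Per1 and Per2 also varied together (r = 0.82, rho = 0.88, and 0.91 without the 2 libraries farthest from the median of Per1). Per2 and Ciart varied in opposite directions (r = −0.79, rho = −0.61), at −0.51 without the same Lyz2-rich libraries. The sum of myeloid markers had r = 0.85 with Per2 (rho = 0.76) and 0.74 with Per1 (rho = 0.75). It had r = −0.89 with Ciart (rho = −0.84) and −0.74 with Dbp (rho = −0.61). That sum was 28788 and 20320 in the Lyz2-rich libraries and 1145.5 or less in every other one, and no r without them was taken. The sum of G2/M genes had r = −0.67 with Dbp (rho = −0.56) and −0.54 with Ciart (rho = −0.46). Within their groups the Lyz2-rich libraries had the highest G2/M sums, 1572 and 990.5, and no r without them was taken here either. Arntl moved with the B-cell sum (r = 0.87, rho = 0.60) and Nr1d1 against it (r = −0.95, rho = −0.925), and Arntl and Nr1d1 moved against each other (r = −0.78, rho = −0.66). Nr1d1 and Nr1d2 had r = 0.64 over all libraries and −0.15 without the 3 of few B-cell transcripts.

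**Figure D4:**
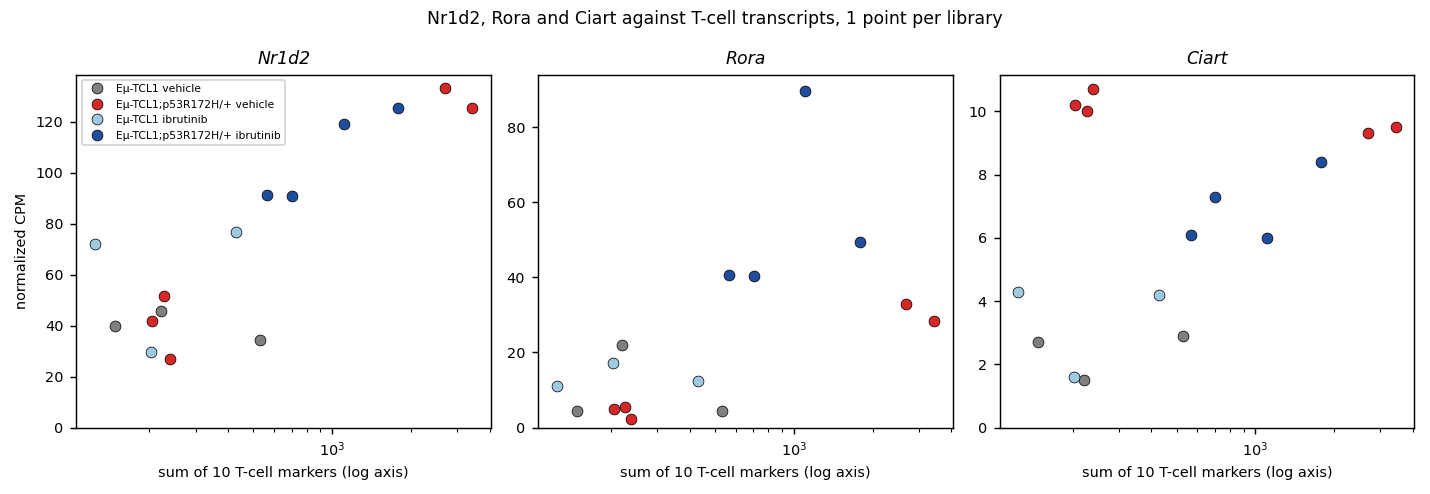
Normalized CPM (vertical axes, from 0) of Nr1d2, Rora and Ciart against the sum of 10 T-cell markers (horizontal axis, logarithmic), with 1 point per library coloured by group. The 2 p53-mutant vehicle libraries with T-cell sums of 2693 and 3434 have Nr1d2 above 120, while Ciart is at 9.3 to 10.7 in p53-mutant vehicle libraries with T-cell sums from 204.8 to 3434.

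The wider clock was followed in a list of 23 other genes, of which 21 were found in the vehicle and 22 in the ibrutinib table. None passed the threshold in limma (Benjamini-Hochberg over all genes). Unadjusted p-values under 0.05 were found for 2 of them in vehicle, 1 in ibrutinib and 0 in the genotype by treatment comparison, where all genes gave 1346 of 16470, 1973 of 16428 and 83 of 15869, so these counts do not set the list apart. In vehicle 9 genes had a log2 difference above 0 and 12 below, with a median of −0.27, and in ibrutinib these were 8, 14 and −0.15. In vehicle, 1 gene lay wholly above and 1 wholly below, and in ibrutinib 2 above and 1 below, counts too small to set against the shares of all genes above. These 5 are named here with their values.

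Clock, which encodes the partner of ARNTL, had log2 differences of 0.03 (SE 0.46) in vehicle and 0.06 (SE 0.22) in ibrutinib. It ranged from 23.0 to 101.5 in p53-mutant and from 52.4 to 70.7 in Eμ-TCL1 vehicle libraries, with the lowest value in p53-mutant replicate 5, a library of low Cry1. Rora, an activator of Arntl that competes with the REV-ERB receptors, was at 49.4, 89.6, 40.5 and 40.3 in p53-mutant and at 17.1, 11 and 12.3 in Eμ-TCL1 ibrutinib libraries. These groups were far apart, with means of 55.0 ± 23.5 (SD, n = 4) and 13.5 ± 3.21 (SD, n = 3) and a log2 difference of 1.89 (SE 0.32, limma adjusted p = 0.165). Their T-cell sums were apart too, at 565.1 to 1785.5 and 123.9 to 428.8, and the part of T cells in the Rora values was not tested. In vehicle Rora was at 32.8 and 28.3 in the 2 T-cell-rich p53-mutant libraries and at 2.2 to 5.5 in the other 3, and its log2 difference was 0.24 (SE 0.90).

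Among the output factors, Tef, a D-box activator related to Dbp, was at 96.8, 76.2, 82.4, 57.9 and 85.7 in p53-mutant and 29.2, 52.3 and 50.3 in Eμ-TCL1 vehicle libraries. No library crossed between the groups, and the log2 difference was 0.87 (SE 0.26, limma adjusted p = 0.488). In ibrutinib Tef overlapped, with means of 63.7 ± 6.60 (SD, n = 4) and 64.8 ± 33.2 (SD, n = 3). Nfil3, which represses D-box genes, had log2 differences of −0.46 (SE 0.69) and −0.34 (SE 0.53).

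The E-box repressors Bhlhe40 and Bhlhe41 (DEC1 and DEC2) did not separate the genotypes. Bhlhe40 had log2 differences of 0.44 (SE 0.57) in vehicle and 0.78 (SE 0.44) in ibrutinib, and in p53-mutant vehicle libraries it was at 23.6 and 19.3 in replicates 3 and 5, those with low Cry1, and at 72.1 to 76.5 in the other 3. Bhlhe41 ranged from 13.7 to 506.0 in p53-mutant vehicle libraries, with 13.7 and 15.4 in those of few B-cell transcripts, and its log2 differences were −0.45 (SE 1.46) and −0.66 (SE 1.43).

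Of the enzymes that act on PER and CRY proteins, Csnk1e, a kinase that marks PER for degradation, was at 9.5 to 19.9 in p53-mutant and 20.8 to 37.9 in Eμ-TCL1 vehicle libraries, a log2 difference of −0.89 (SE 0.31, limma adjusted p = 0.545). Btrc, a ligase subunit that recognizes phosphorylated PER, was at 8.8 to 14.2 and 14.7 to 18.6 in ibrutinib, a log2 difference of −0.54 (SE 0.23, limma adjusted p = 0.416). Fbxl21, a ligase subunit for CRY, was at 0.4 to 2.7 against 0.2 to 0.3 in ibrutinib (limma adjusted p = 0.522), with its highest values, 2.7 and, in vehicle, 3.0 and 2.1, in the T-cell-rich libraries. Tef, Csnk1e, Rora, Fbxl21 and Btrc all missed the threshold.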

How the data were processed

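The authors aligned reads to GRCm38, counted them per gene on GENCODE M2, filtered genes of low CPM and normalized with edgeR; the submitters' processing notes name TopHat2 2.0.12, SAMtools 0.1.19, HTSeq and edgeR. The deposited signal values are CPM on an effective library size set by the authors in each of 2 tables and rounded to 0.1, with column sums from 756625 to 1359650. Whole reads could not be recovered from them, so no count model was run and the depth cannot be given.

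Within a table, genotypes were compared by limma (3.58.1; R 4.3.3), with a mean-dependent prior variance, on log2(value + 1), which understates the change of low genes. P-values were adjusted over all genes of the table (Benjamini-Hochberg) and held to 0.05. The genotype by treatment contrast used genes in both tables. The fit was tested on simulated data. Replicates are numbered samples whose separate origin from mice the labels do not state, so p-values measure the spread between these samples.

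All 10 clock genes are named. Of 23 other clock genes, those past the threshold, those whose genotypes do not overlap in a table, and Clock, Tef, Nfil3, Bhlhe40 and Bhlhe41 are named, and for likeness the 5 genes with the highest r to Ciart. The members and lists were chosen with earlier results of these data known. Libraries of few B-cell transcripts had Btk under 0.1 of the median of their table, and libraries with Y-linked transcripts had Ddx3y of at least 10. The alternatives tried were each library left out, a block on the replicate number, quantile normalization, weights for sample quality, a pseudocount of 0.1 or 5, only genes with a mean of 5 or more, and libraries without few B-cell or Y-linked transcripts. Leaving out libraries with Lyz2 over 1000 as well was chosen after seeing the data. Gene positions are from GENCODE M21 (GRCm38) and promoters from RefSeq (GRCm38.p6). Figures used matplotlib 3.10.9 (Python 3.11.15).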

Additional observations from a re-analysis of the deposited data

Results flagged for a closer look

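Cry1 in p53-mutant ibrutinib replicate 5 was at 10.2, the lowest of 4 libraries, with the others at 18.2 to 19.1. Its gap to the nearest library was 0.899 of the range of the group, above the critical value of 0.829. In all 20 sets of 1 clock gene in 1 group were looked at in this way, and chance flags about 1 in 20 sets.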

How the results depend on the processing

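The median log2 difference of the 10 clock genes in vehicle, 0.89, was 1.17 with a pseudocount of 0.1, and 0.66 to 1.21 with each library left out in turn, the highest without Eμ-TCL1 vehicle replicate 2. In ibrutinib the median was 0.11, and 0.03 to 0.36 with each library left out. Ciart lay above 0 in all 17 alternatives in vehicle (1.02 to 2.08) and all 16 in ibrutinib (0.50 to 1.13), and Per1 did too (1.09 to 1.69 and 0.33 to 0.74). Dbp did in all 17 in vehicle (1.14 to 1.88) but in 13 of 16 in ibrutinib (−0.11 to 0.76). For Ciart in vehicle and ibrutinib, and for Per1 and Dbp in vehicle, the groups do not overlap. Leaving libraries out or changing the pseudocount cannot turn such a direction. The genes were also proposed with these results in view, so nothing is read from these counts. In ibrutinib the direction of Arntl, Per2, Cry1, Cry2 and Nr1d1 depended on the setting. In vehicle that of Nr1d2 (−0.08 to 0.96) and Per3 (−0.22 to 0.60) did as well. No other clock gene passed the threshold under any alternative, the lowest adjusted p being 0.0501 in vehicle with sample quality weights, which called 803 genes in all against 2.

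The replicate numbers were not taken to pair all libraries. In 5 of 6 vehicle and ibrutinib pairs of the same number the deviations had r of 0.75 to 0.84 over genes, but in p53-mutant replicate 3 r was −0.11 and only the ibrutinib library had Y-linked transcripts, while Eμ-TCL1 vehicle replicate 2 and ibrutinib replicate 1 had 0.90. Within a table the replicate block joined libraries of the same number across the genotypes, which come from different mice. Their deviations had r of 0.03 to 0.29 over genes in vehicle and −0.20 to −0.05 in ibrutinib. With this block the members' median was 0.88 in vehicle and 0.10 in ibrutinib, 0 other clock genes passed, and 20 genes in all passed in vehicle. It does not pair libraries of 1 mouse, so nothing is read from that count. In the genotype by treatment fit the block joined libraries of the same genotype and number, and the block correlation was 0.69. There Cry2 had −1.72 (SE 0.41), Per2 −1.41 (SE 0.41), Dbp −1.35 (SE 0.33), Ciart −0.89 (SE 0.24) and Per1 −0.81 (SE 0.25). As said above, the choice of genes by itself favours values below 0 in this contrast. Unknown depth limits what can be said of Nr1d1 and Fbxl21, which lie close to the rounding step.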

Other observations

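Over all 15 libraries, as log2(value + 1) minus the table mean, the genes most like Ciart among 10119 with a mean of at least 5 in both tables were Uri1 (r = 0.96), Rab10os (0.96), Ppfia1 (0.95), Ndor1 (0.94) and Npepl1 (0.94). Uri1, for example, had mean levels of 37.2 in Eμ-TCL1 and 68.7 in p53-mutant vehicle libraries, and of 34.7 and 52.0 in ibrutinib. Among the 10 clock genes, of which Nr1d1 was below that mean, Dbp stood at place 32 with r = 0.90, Per1 at 858 (0.68), Cry2 at 1799 (0.54), Nr1d2 at 1977 (0.52) and Arntl at 2855 (0.41). Per2 stood at place 5210 (0.10), Per3 at 6718 (−0.12) and Cry1 at 7985 (−0.35). These values describe libraries that share a table scale, cell content and genotype, and carry no test.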
